A study of Homo sapiens with 15 samples.

Results

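Chemokine genes of the senescence-associated secretory phenotype (SASP) were followed in the human fibrosarcoma line HT-1080. The set was chosen by name as CCL2, CCL7, CCL20, CXCL1, CXCL2, CXCL3, CXCL8 and CXCL12, and each name was matched through its Ensembl identifier to 1 row of the count table, which gave 8 genes of 60670. The series had 15 RNA sequencing libraries in 5 groups of 3, all from this 1 line and labelled as biological replicates. Cycling cells received the vehicle DMSO and carry a 6 h time label. The other 4 groups were senescent cells that had expressed, over 6 days, a dominant negative TRF2 mutant, which uncaps telomeres. They then received DMSO for 6 h, DMSO for 24 h, 1 uM GNF-7 for 6 h or 1 uM GNF-7 for 24 h. GNF-7 is a tyrosine kinase inhibitor, and the series is named for its action on senescent cells through the kinase GCN2. No group combined cycling cells with GNF-7, and the labels do not say whether the cycling cells carried the TRF2 construct. P-values measure the spread between libraries of 1 line.

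Chemokines are small secreted proteins that draw leukocytes along a concentration gradient through G protein-coupled receptors. In the SASP of senescent fibroblasts and tumour cells their genes are known to be switched on through NF-kB and C/EBP beta, often downstream of interleukin-1 alpha and of DNA damage signalling, and the secreted proteins recruit immune cells that can clear the senescent cells. CCL2 and CCL7, neighbours on chromosome 17, attract monocytes through CCR2 and related receptors. CXCL8 (interleukin-8), CXCL1, CXCL2 and CXCL3 lie on chromosome 4 and attract neutrophils through CXCR2, and CXCL8 also through CXCR1. CCL20 attracts CCR6-positive lymphocytes and dendritic cells. CXCL12 signals through CXCR4 and is scavenged by the atypical receptor ACKR3.

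The sequence before the start site is shown for 6 of these genes because CXCL1, CXCL2 and CXCL3 nearly share it and yet gave very different counts, and to show the NF-kB match of CCL20 and the AP-1 matches of CXCL8 and CCL7. All are the 150 bases before the RefSeq start site on GRCh38.p14, 5′ to 3′ on the strand of the gene, with matches to the NF-kB motif (CXCL1, CXCL2, CXCL3, CCL20) or the AP-1 motif (CXCL8, CCL7) in capitals. The windows lie, for CXCL1 at chr4:73869243-73869392 on the plus strand, CXCL2 at chr4:74099196-74099345 on the minus strand, CXCL3 at chr4:74038690-74038839 on the minus strand, CXCL8 at chr4:73740419-73740568 on the plus strand, CCL20 at chr2:227813692-227813841 on the plus strand and CCL7 at chr17:34270071-34270220 on the plus strand.
CXCL1: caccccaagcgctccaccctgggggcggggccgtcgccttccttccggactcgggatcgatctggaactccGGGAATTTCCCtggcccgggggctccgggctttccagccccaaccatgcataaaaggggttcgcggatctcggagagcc
CXCL2: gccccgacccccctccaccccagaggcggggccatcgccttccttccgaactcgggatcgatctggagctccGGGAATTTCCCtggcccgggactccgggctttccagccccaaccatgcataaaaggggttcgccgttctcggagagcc
CXCL3: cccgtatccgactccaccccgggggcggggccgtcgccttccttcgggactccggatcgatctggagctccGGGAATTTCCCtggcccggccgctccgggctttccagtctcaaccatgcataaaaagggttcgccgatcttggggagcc
CXCL8: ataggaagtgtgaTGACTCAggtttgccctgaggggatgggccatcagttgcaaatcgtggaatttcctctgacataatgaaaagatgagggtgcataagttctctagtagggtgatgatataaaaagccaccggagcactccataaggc
CCL20: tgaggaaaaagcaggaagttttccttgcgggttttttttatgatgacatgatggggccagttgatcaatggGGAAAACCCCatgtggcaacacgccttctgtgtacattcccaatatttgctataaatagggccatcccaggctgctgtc
CCL7: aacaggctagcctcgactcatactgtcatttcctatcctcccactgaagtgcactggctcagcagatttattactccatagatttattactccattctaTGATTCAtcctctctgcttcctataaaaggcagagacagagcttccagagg

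Promoter windows were matched for 7 of the 8 genes (all except CCL2), and 250 bases before each start were searched on both strands. Counted from the start site, the NF-kB motif lay at -79 to -70 in CXCL1, CXCL3 and CCL20 and at -78 to -69 in CXCL2, and in the 3 CXCL genes a match on the other strand overlapped it by all but 1 base at either end. In CCL20 the only match was on the other strand, so its printed capitals are the reverse complement of the motif. The NF-kB motif searched was GGGRNNYYCC (R a purine, Y a pyrimidine, N any base), found in 9.96% of the 35116 promoters of the same length in the table. The CXCL8 window holds tggaatttcc, which has t in place of the first G and so was not matched. A window without a match can thus still hold a site with other letters. The AP-1 motif TGANTCA lay at -137 to -131 in CXCL8 and at -51 to -45 in CCL7, against 6.57% of all promoters. The TATA letters TATAAA were found in CXCL8, CCL20 and CCL7 (10.7% of all promoters), and the C/EBP-ATF motif TGATGNAA in none of the 7 (3.14%). No match of 1 motif overlapped that of another. Aligned over 150 bases, CXCL1 and CXCL2 were 88.8% identical, CXCL1 and CXCL3 88.1%, and CXCL2 and CXCL3 86.3%. The RefSeq starts of CXCL2, CXCL3, CXCL8, CCL20 and CXCL12 lie inside the longer GENCODE gene spans given with the values. A match describes letters only.

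Libraries held 25991007 to 32323393 counts. TERF2, the gene of TRF2, stood at 58.2 ± 3.65 CPM (each count scaled by the size of its library; SD, n = 3) in cycling libraries and 287 ± 8.17 CPM in senescent vehicle libraries at 6 h (log2 fold change 2.30, SE 0.044, edgeR adjusted p 1.79e-48), and at 222, 220 and 132 CPM with GNF-7 at 6 h, in vehicle at 24 h and with GNF-7 at 24 h. Counts from the introduced mutant and from the native gene cannot be told apart. The 6 mesenchymal markers summed to 6154 to 8008 CPM, of which VIM took 3346 to 4499 CPM, while S100A4 stood at only 0.162 to 3.10 CPM. The 6 leukocyte markers summed to 2.90 to 4.79 CPM in the 15 libraries, of which the monocyte and macrophage gene CSF1R took 2.25 to 4.06 CPM and LYZ at most 0.724 CPM, with MS4A1 at 0 and CD3E, PTPRC and CD14 each under 0.5 CPM. The part of leukocyte RNA in the chemokine values was not tested. The 5 endothelial markers summed to 1.30 to 3.14 CPM. Of the 6 epithelial markers, KRT8 and KRT18 were expressed and EPCAM and CDH1 stayed at or under 0.221 CPM. Mitochondrial genes took 4.32% of counts in cycling, 11.7% in vehicle at 6 h, 14.1% with GNF-7 at 6 h, 16.9% in vehicle at 24 h and 23.3% with GNF-7 at 24 h (exact two-sided permutation p 0.1 in each of 4 comparisons, the smallest that 3 against 3 allow). The 4 proliferation markers summed to 1316 to 1450 CPM in cycling libraries and to 95.1 to 107 CPM in GNF-7 libraries at 24 h.

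Of the 8 genes, 5 had enough counts to be tested (CCL2, CCL7, CCL20, CXCL3 and CXCL8) and 3 were too low (CXCL1, CXCL2 and CXCL12). Relative to cycling cells, senescent vehicle cells had more CCL2 and CCL20 and less CXCL8 transcript. GNF-7 lowered CCL2 and CXCL8 and raised CXCL3 at both times, while CCL20 was not called with GNF-7. CCL7 was also called lower at both times, from few counts, and its 6 h call rested on 1 library. Chemokine transcript in senescent vehicle cells was mostly CCL2, and after 24 h of GNF-7 it was mostly CCL20, CXCL3 and CXCL8. The libraries are bulk RNA, so fewer expressing cells and less RNA per cell cannot be told apart.

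**Figure D1:**
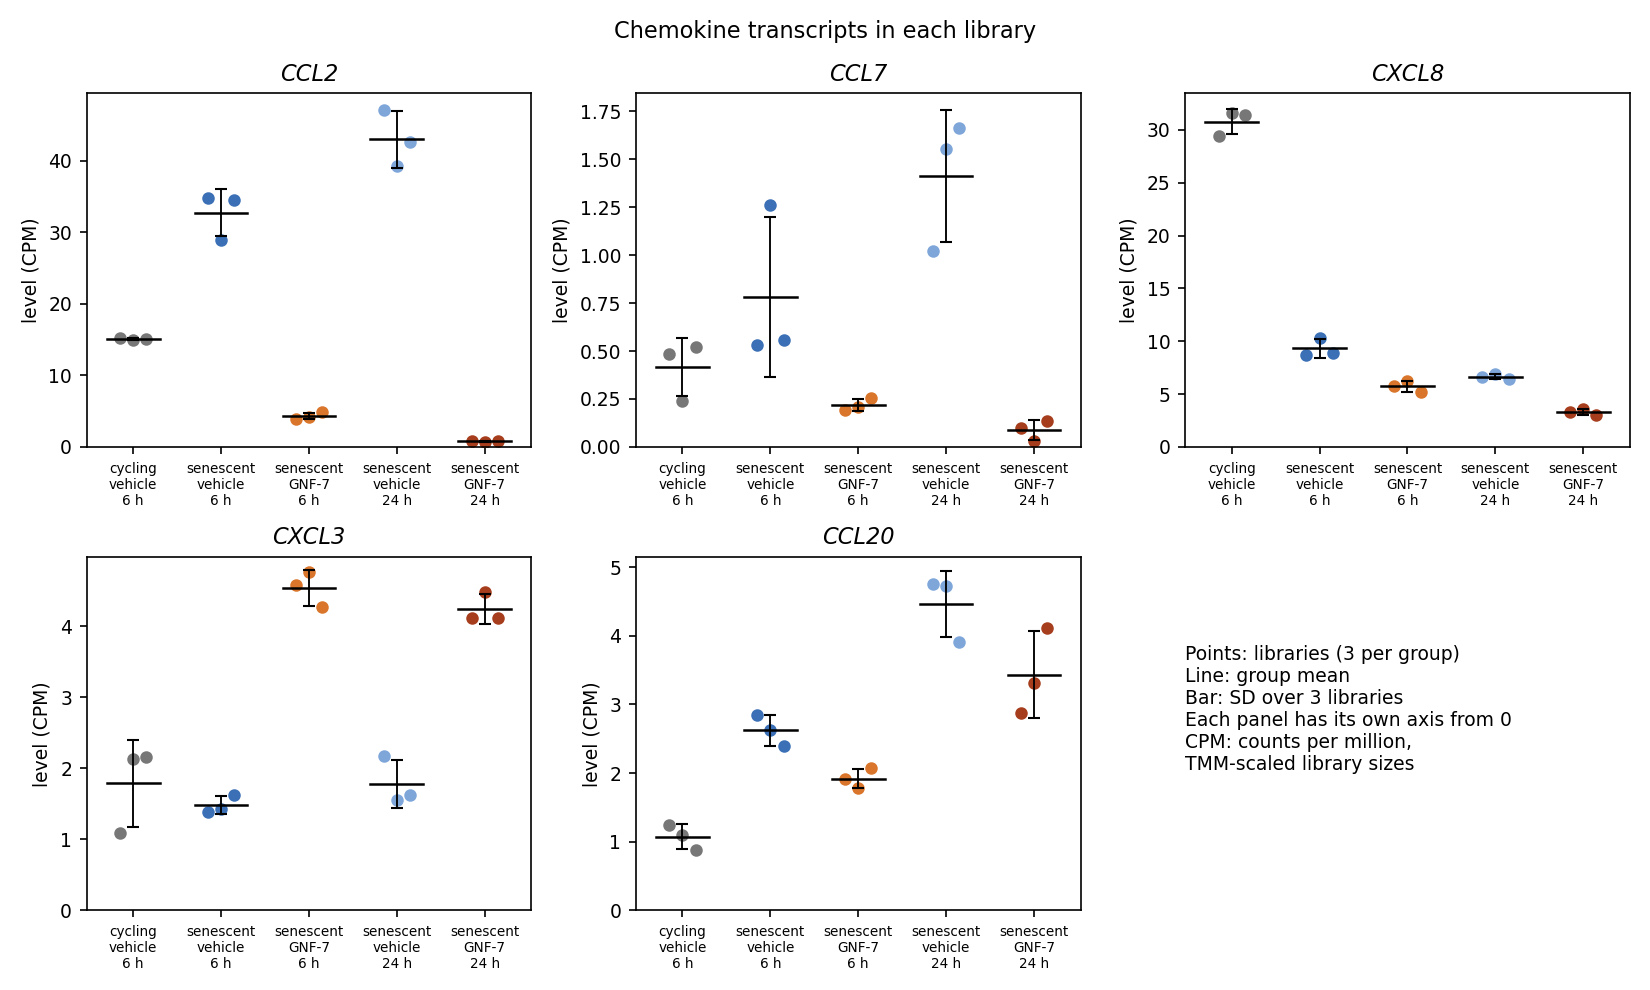
Level of each tested chemokine gene in CPM (vertical axis, linear from 0, a separate axis in each panel) in the 5 groups (horizontal axis); points are libraries, lines group means and bars the SD over 3 libraries. CCL2 stood between 28.9 and 47.1 CPM in the senescent vehicle libraries and under 0.87 CPM in the GNF-7 libraries at 24 h, and CXCL3 was above 4.2 CPM in the GNF-7 libraries at 6 h and above 4.1 CPM in those at 24 h.

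Genes were called at an edgeR adjusted p under 0.05 over all 18563 genes tested. In senescent against cycling vehicle cells, 2 of the 5 chemokine genes tested were called higher (background 35.6% of genes tested) and 1 lower (34.4%), where 70% of all genes tested were called. With GNF-7 at 6 h, 1 was higher (17.9%) and 3 lower (21.4%), against 39.3% called in all. With GNF-7 at 24 h, 1 was higher (29.3%) and 3 lower (29.7%), against 58.9% called in all. The test of whether the GNF-7 effect differed between 24 h and 6 h called 2 of the 5, both more negative at 24 h, and DESeq2, limma voom and an unadjusted edgeR p under 0.05 gave the same counts of 0 more positive and 2 more negative (18% of genes tested were called in that direction, 12.8% in the other and 30.8% in all). The 2 called were CCL2, whose call held in 24 of 24 alternatives, and CCL7, whose call, from few counts, held in 15 of 23. Between vehicle at 24 h and at 6 h, 2 were higher (9.26%) and 1 lower (9.29%), against 18.5% called in all. The median log2 fold change of the 5 tested genes was 0.92 in senescence, -0.70 with GNF-7 at 6 h and -1.01 with GNF-7 at 24 h, where the medians of all genes tested were 0.06, 0.01 and 0.04. Both senescent vehicle groups enter more than 1 of these comparisons, so the comparisons are not independent of each other. Cycling cells serve again as the control where GNF-7 groups are set against cycling cells below.

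CCL2 (ENSG00000108691, GRCh38 chr17:34255218-34257203, plus strand), the main monocyte attractant, read 15.2, 14.9 and 15.02 CPM in the cycling libraries and 34.7, 28.9 and 34.5 CPM in senescent vehicle libraries at 6 h. After 6 h of GNF-7 the libraries read 3.92, 4.18 and 4.84 CPM, against 47.1, 39.2 and 42.6 CPM in vehicle at 24 h and 0.868, 0.747 and 0.764 CPM with GNF-7 at 24 h. The 5 groups stood in 1 order, GNF-7 at 24 h, GNF-7 at 6 h, cycling, vehicle at 6 h and vehicle at 24 h, and no library of a group overlapped the next. CCL2 was 2.18-fold higher in senescence (log2 1.12, SE 0.082, edgeR adjusted p 3.00e-19). GNF-7 lowered it by 7.57-fold at 6 h (log2 -2.92, SE 0.096, 3.19e-35) and by 54.0-fold at 24 h (-5.75, SE 0.126, 5.38e-45). The effect at 24 h was the larger, with a difference on the log2 scale of -2.83 (SE 0.189, edgeR adjusted p 1.28e-19). In vehicle alone CCL2 was slightly higher at 24 h than at 6 h (0.40, 5.24e-05).

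GNF-7 took CCL2 below its level in cycling cells. The log2 difference from cycling cells was -1.80 (edgeR adjusted p 3.59e-24) at 6 h, when 39.6% of all genes tested were called higher and 36.1% lower than in cycling cells (75.7% in all). At 24 h it was -4.24 (18.9-fold, 2.61e-36), when 42.7% of all genes tested were called higher and 37.5% lower (80.3% in all), and there the time label differs as well. Of the 5 chemokine genes tested, 2 were higher and 2 lower than in cycling cells after 6 h of GNF-7, and 2 were higher and 3 lower after 24 h. The mitochondrial share was 23.3% with GNF-7 at 24 h, where CCL2 was lowest, 16.9% in vehicle at 24 h, where CCL2 was highest, and 4.32% in cycling cells. With mitochondrial genes left out of the counts, the 24 h fall of CCL2 was -5.77, and the part of library composition in the CCL2 values was not tested.

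CCL7 (ENSG00000108688, chr17:34270221-34272242, plus strand), a second monocyte attractant that starts downstream of CCL2 on the same strand, was far scarcer. Its counts were 12, 7 and 16 in cycling libraries, 16, 40 and 16 in vehicle at 6 h, 6, 6 and 8 with GNF-7 at 6 h, 32, 44 and 43 in vehicle at 24 h, and 3, 1 and 4 with GNF-7 at 24 h. The GNF-7 libraries lay below the vehicle libraries of the same time at both times, and senescent vehicle replicate 2 was the only library of its group well above cycling cells. CCL7 passed the filter on low counts through the cycling and vehicle libraries alone, since 0 of the 6 GNF-7 libraries reached its limit of 0.335 CPM. Summed over libraries, vehicle held 72 counts and GNF-7 20 at 6 h, and vehicle 119 and GNF-7 8 at 24 h. The ratio of vehicle to GNF-7, scaled for library size, was 3.63 at 6 h (exact 95% interval 2.19 to 6.29) and 15.8 at 24 h (7.76 to 37.4), intervals that cover counting error only. The fitted log2 values were -1.83 at 6 h (SE 0.493, edgeR adjusted p 0.00194) and -3.93 at 24 h (SE 0.550, 7.05e-09), and with no filter on low counts they were -1.85 (0.00149) and -3.96 (5.69e-12). The mean with GNF-7 at 24 h lay under the level of 3 counts a library, so the size of that fall is known only within the counting interval. The 6 h fall was not called without senescent vehicle replicate 2 (-1.30, 0.0687).

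In senescence CCL7 was not called (0.92, SE 0.454, 95% interval 0.03 to 1.81, edgeR adjusted p 0.0665). That value depended on single libraries and on scaling: it was 0.38 without senescent vehicle replicate 2, and it was called without senescent vehicle replicate 1 (1.13) or replicate 3 (1.11), with scaling to total counts (1.05) and in a fit of those 2 groups alone (0.98). The difference of the GNF-7 effects between times was -2.10 (SE 0.797, edgeR adjusted p 0.0365), and it was no longer called without a filter on low counts or when 1 of 7 single libraries was left out. Vehicle at 24 h did not differ by the test from vehicle at 6 h (0.83, 0.150), except without senescent vehicle replicate 2 (1.37, 0.0499). Relative to cycling cells, CCL7 was lower after 24 h of GNF-7 (-2.18, 0.00147) and not called after 6 h (-0.91, 0.118).

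CXCL8 (ENSG00000169429, chr4:73740506-73743716, plus strand), the main neutrophil attractant of the set, went the other way from CCL2 in senescence. It read 29.4, 31.6 and 31.4 CPM in cycling libraries and 8.74, 10.3 and 8.91 CPM in senescent vehicle libraries at 6 h. GNF-7 libraries at 6 h read 5.77, 6.27 and 5.22 CPM, in vehicle at 24 h 6.64, 6.95 and 6.42 CPM, and with GNF-7 at 24 h 3.34, 3.57 and 2.99 CPM. Cycling libraries were the highest, GNF-7 libraries at 24 h the lowest, and no neighbouring groups in the order overlapped. CXCL8 was lower in senescence by 3.30-fold (log2 -1.72, SE 0.097, edgeR adjusted p 2.16e-24).

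GNF-7 lowered CXCL8 further, by 1.62-fold at 6 h (log2 -0.70, SE 0.110, edgeR adjusted p 3.41e-07) and by 2.02-fold at 24 h (-1.01, SE 0.125, 2.08e-10). The effects at the 2 times did not differ by the test (-0.31, 95% interval -0.64 to 0.01, 0.158). CXCL8 also fell over time in vehicle (-0.48, 6.53e-04). After 24 h of GNF-7 it was 9.32-fold below cycling cells (-3.22, 1.36e-35), and after 6 h the log2 difference from cycling cells was -2.42 (1.13e-30). The summed proliferation markers were lower in the same groups, at 1316 to 1450 CPM in cycling and 324 to 331 CPM in senescent vehicle libraries at 6 h, and their part in the CXCL8 values was not tested.

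CXCL3 (ENSG00000163734, chr4:74036589-74038807, minus strand), another CXCR2 ligand, was the gene of the set that GNF-7 raised. It read 1.09, 2.13 and 2.15 CPM in cycling libraries and 1.39, 1.42 and 1.63 CPM in senescent vehicle libraries at 6 h. GNF-7 libraries at 6 h read 4.57, 4.76 and 4.26 CPM, in vehicle at 24 h 2.17, 1.55 and 1.63 CPM, and with GNF-7 at 24 h 4.11, 4.48 and 4.12 CPM. The 6 GNF-7 libraries lay above the 9 others, and the cycling and vehicle groups overlapped each other. GNF-7 raised CXCL3 by 3.06-fold at 6 h (log2 1.61, SE 0.204, edgeR adjusted p 1.26e-09) and 2.36-fold at 24 h (1.24, SE 0.201, 2.83e-07), and the 2 effects did not differ by the test (-0.37, 95% interval -0.94 to 0.19, 0.366).

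Against cycling cells CXCL3 was higher after GNF-7 at 6 h (1.32, edgeR adjusted p 3.25e-08) and at 24 h (1.22, 1.95e-07). It was not called in senescence (-0.30, 0.245), except without cycling replicate 1 (-0.54, 0.0346), the lowest library of its group. Vehicle at 24 h and at 6 h did not differ by the test (0.28, 0.464).

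CXCL1 (ENSG00000163739, chr4:73869393-73871242, plus strand) had 0 counts in all 15 libraries, although its printed promoter is nearly that of CXCL3. CXCL2 (ENSG00000081041, chr4:74097035-74099293, minus strand) had 1 count in GNF-7 replicate 3 at 6 h, 3 counts in GNF-7 replicate 3 at 24 h and 0 in the other 13 libraries. CXCL12 (ENSG00000107562, chr10:44370165-44386493, minus strand) had 0 counts throughout. At 0 counts a library allows up to 3, or 0.0928 to 0.115 CPM depending on its total, a limit on counting error only, and changes below it were not detectable. Of the 50-base stretches in annotated transcripts, 4.81% of those of CXCL1, 12.5% of CXCL2 and 6.01% of CXCL3 were shared with another gene, in each case among these 3. Reads in such stretches could be lost or shared out in counting, and how they were handled is not given in the sources used here. No stretch was shared for the other 5 genes, and no exon of the 8 genes overlapped an exon of another gene.

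CCL20 (ENSG00000115009, chr2:227805739-227817564, plus strand), the CCR6 ligand, rose in senescence and was not called with GNF-7. It read 1.25, 1.10 and 0.881 CPM in cycling libraries, 2.85, 2.62 and 2.39 CPM in vehicle at 6 h and 1.91, 1.78 and 2.07 CPM with GNF-7 at 6 h. At 24 h it read 4.75, 4.73 and 3.91 CPM in vehicle and 2.87, 3.31 and 4.12 CPM with GNF-7. Cycling libraries were the lowest, the 6 h groups did not overlap and the 24 h groups did. Senescence raised CCL20 by 2.45-fold (log2 1.29, SE 0.223, edgeR adjusted p 6.98e-07), and it rose again between 6 h and 24 h of vehicle (0.77, SE 0.185, 0.00146).

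The GNF-7 difference in CCL20 was -0.45 at 6 h (95% interval -0.84 to -0.05, edgeR adjusted p 0.0713) and -0.38 at 24 h (-0.73 to -0.03, 0.0634). The 24 h value was called when either replicate 3 of the 24 h vehicle group (-0.47) or replicate 3 of the 24 h GNF-7 group (-0.53) was left out, with limma voom (-0.40) and in a fit of those 2 groups alone (-0.38). The difference between the 2 effects was 0.07 (-0.46 to 0.59, 0.894), and its sign turned without either of those libraries (-0.020 and -0.085). CCL20 stayed above cycling cells after GNF-7, by 0.85 at 6 h (8.97e-04) and by 1.68, or 3.21-fold, at 24 h (3.12e-10).

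**Figure D2:**
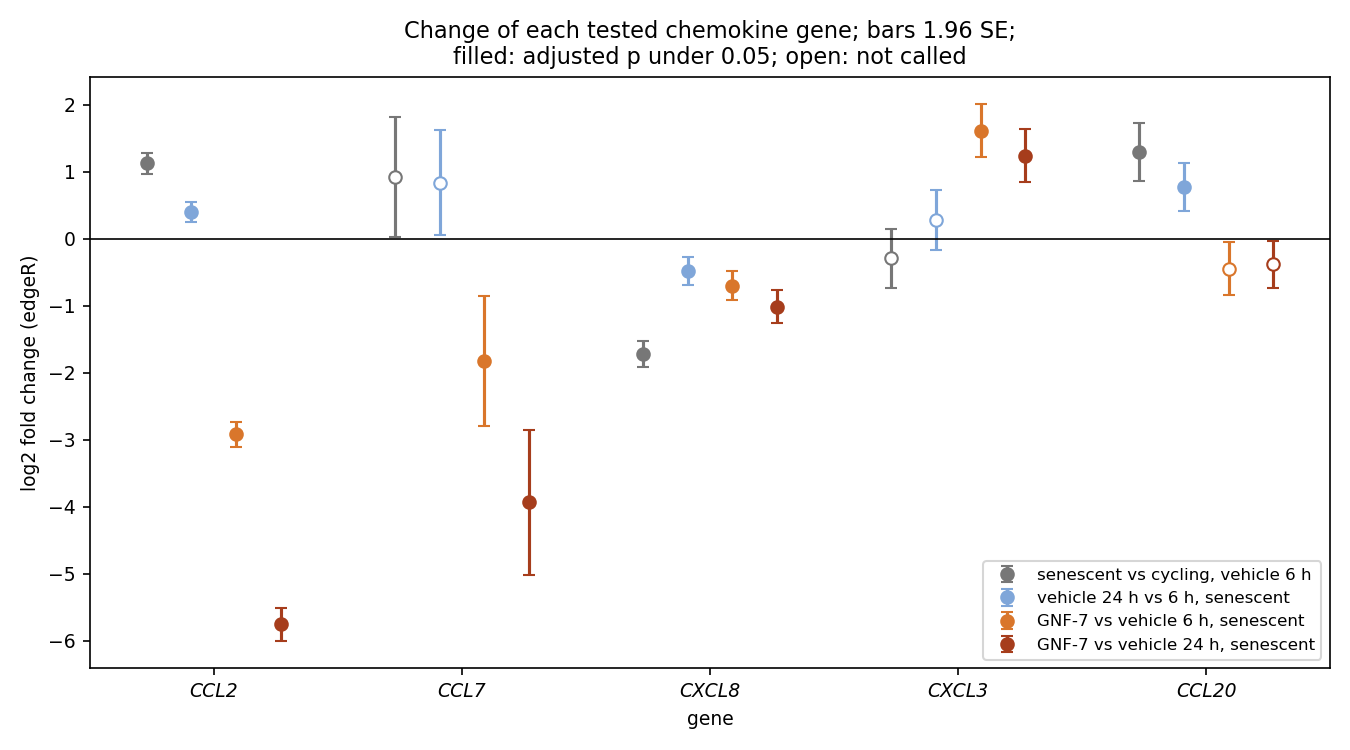
Log2 fold change of each tested chemokine gene (vertical axis) by gene (horizontal axis) in 4 comparisons given by colour; bars are 95% intervals from the SE, filled points have an edgeR adjusted p under 0.05 and open points do not. CCL2 reaches -5.75 with GNF-7 at 24 h, and CXCL3 alone is filled above 0 with GNF-7 (1.61 at 6 h and 1.24 at 24 h).

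Per kilobase of annotated exon, the summed level of the 8 genes was 23.1 ± 0.592 CPM per kb in cycling cells and 23.8 ± 0.819 in senescent vehicle at 6 h, and the libraries overlapped (22.4 to 23.5 and 22.9 to 24.4). With GNF-7 at 6 h the sum was 8.21 ± 0.192, in vehicle at 24 h 29.8 ± 1.79 and with GNF-7 at 24 h 6.04 ± 0.343 CPM per kb (SD, n = 3 each). CCL2 made up 32.8% of the sum in cycling cells, 69.1% in vehicle at 6 h and 72.5% in vehicle at 24 h, and 26.4% and 6.65% with GNF-7 at 6 h and 24 h. CXCL8 made up 58.7% in cycling cells, 17.3% and 9.87% in vehicle and 30.8% and 24.1% with GNF-7 at 6 h and 24 h. CXCL3 took 3.48% in cycling cells, 2.80% and 2.68% in vehicle and 24.9% and 31.7% with GNF-7. CCL20 took 2.94% in cycling cells and 35.5% with GNF-7 at 24 h.

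These shares depend on the length used. The exon length of CCL2 is 1 block over its whole gene span, 1986 bases against 741 in its principal transcript. That of CXCL3 is also 1 block over its span, 2219 bases against 1075, while CXCL8 has 2274 against 1705. The exon length thus lowers the level per kb of CCL2 more than that of CXCL8. By the length of the principal transcript of each gene, CCL2 took 48.5% and CXCL8 43.1% of the cycling sum, which turns their order there, and the sums were 41.9 ± 0.864 CPM per kb in cycling and 55.2 ± 3.47 in vehicle at 6 h, where the libraries did not overlap (40.9 to 42.4 and 51.3 to 57.5). By either length CCL2 led in both vehicle groups, and CCL20 and CXCL3 came before CXCL8 and CCL2 with GNF-7 at 24 h. After 6 h of GNF-7 the first place went to CXCL8 by exon length and to CCL2 (36.1%) by principal transcript.

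**Figure D3:**
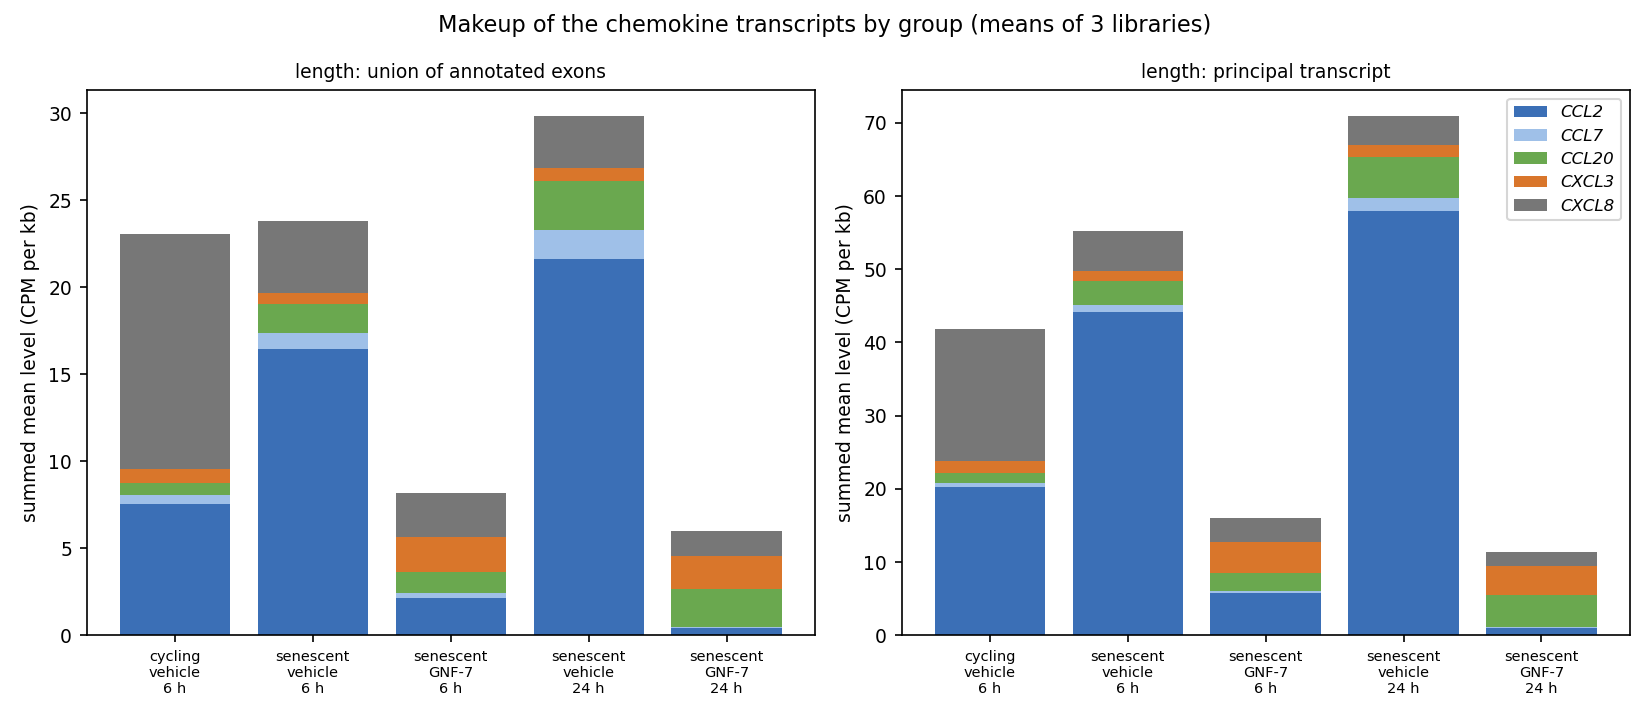
Mean level of each chemokine gene per kilobase (vertical axis, CPM per kb, from 0), stacked by gene in the 5 groups (horizontal axis), with the exon length on the left and the principal transcript length on the right; bars are means of 3 libraries and carry no error. CCL2 fills most of both vehicle bars, 69.1% and 72.5% by exon length, and 6.65% of the bar for GNF-7 at 24 h; CXCL1, CXCL2 and CXCL12 are at or too near 0 to be drawn.

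Across the 15 libraries the log2 CPM of CCL2 and CCL7 had a Pearson r of 0.908, and CXCL3 ran against both (-0.836 with CCL2 and -0.781 with CCL7). CCL2 with CCL20 gave 0.0013 and CCL20 with CXCL8 -0.762. These values describe 15 libraries that share 5 groups and follow the group means. The genes most like each chemokine over the 15 libraries, among those with a mean of at least 1 CPM, were CRELD2 (r 0.994), CCND1 (0.994) and C5orf15 (0.991) for CCL2, and INCENP (0.996), TTLL4 (0.996) and RFWD3 (0.995) for CXCL8. For CCL20 they were LAMTOR4 (0.964), NPC2 (0.963) and CEP250 (0.963), and for CXCL3 they were CSF2RA (0.955), CCDC174 (0.953) and IFRD1 (0.950). Likeness is in shape and not in size: CCND1, the G1 cyclin D1, averaged 886 CPM in vehicle and 445 CPM with GNF-7 at 24 h, where CCL2 averaged 43.0 and 0.793 CPM.

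The rest of the chemokine family was scarce in these cells. Of 37 other chemokine genes, 12 had no count and 3 were tested, namely CCL3, CCL5 and CXCL16. Only CCL3, a CCR1 ligand, was called, in senescence (edgeR adjusted p 3.71e-05). It had 3 counts in the cycling libraries together and 53 in vehicle at 6 h, a ratio of 16.5 scaled for library size (exact 95% interval 5.34 to 82.4, counting error only), and it passed the filter on low counts through senescent libraries alone. None of the 3 was called with GNF-7 at either time by edgeR, DESeq2 or limma voom, and 0 had an unadjusted edgeR p under 0.05. CXCL16, the most abundant, stayed at 2.15 to 2.43 CPM in group means.

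Chemokine receptor genes were at low levels, and 9 of 23 were tested. In senescence 5 of the 9 were called higher and 1 lower (35.6% and 34.4% of all genes tested), with GNF-7 at 6 h 1 higher and 0 lower (17.9% and 21.4%), and with GNF-7 at 24 h 2 higher and 3 lower (29.3% and 29.7%). The 5 called higher in senescence had cycling means of 0.036 to 0.151 CPM, under the filter limit of 0.335 CPM. They passed the filter on low counts through senescent libraries alone, which favours calls in that direction, so their number is no support for a rise of receptors. The 2 called higher with GNF-7 at 24 h were CCR2 and ACKR2. CCR2 passed the filter only through that group, and ACKR2 stood at 0.073 CPM in vehicle and 0.253 CPM with GNF-7, both under the limit. That number is thus no support for a rise with GNF-7 either. DESeq2 and limma voom also called 0 lower at 6 h, and 0 were lower there at an unadjusted edgeR p under 0.05. ACKR3, the scavenger of CXCL12, stood at 0.068 ± 0.091 CPM in cycling, 1.40 ± 0.241 in vehicle at 6 h, 6.70 ± 0.581 with GNF-7 at 6 h, 0.903 ± 0.258 in vehicle at 24 h and 1.30 ± 0.409 CPM with GNF-7 at 24 h. It rose in senescence (4.22, SE 0.465, edgeR adjusted p 3.52e-12) from 6 counts in the cycling libraries together, and again with GNF-7 at 6 h (2.26, SE 0.228, 1.01e-12), with no call at 24 h (0.54, 0.1001). The effect at 24 h differed from that at 6 h by -1.72 on the log2 scale (edgeR adjusted p 1.69e-04). CXCL12 itself was at 0 throughout, and CXCR4 had 22 counts in the 15 libraries together. The chemerin-binding receptor CCRL2 was lower in senescence (-0.34, 0.0173), a call lost with scaling to total counts, with a filter at a mean of 5 CPM or without cycling or senescent vehicle replicate 2, and lower with GNF-7 at 24 h (-0.47, 0.00327). CCR10, the receptor for CCL27 and CCL28, was lower with GNF-7 at 24 h (-0.48, 0.0255), a call lost when replicate 3 of the 24 h vehicle group, or replicate 2 or 3 of the 24 h GNF-7 group, was left out.

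All 21 listed genes of the NF-kB pathway were tested. In senescence 12 were called higher and 5 lower, against 35.6% and 34.4% of all genes tested (median 0.22, against 0.06). RELB, a non-canonical subunit, rose by 1.28 (16.3 to 39.7 CPM, edgeR adjusted p 2.55e-25), TNFAIP3, the A20 feedback enzyme, by 1.13 (5.60e-18) and BIRC3, an inhibitor of apoptosis protein, by 1.04 (9.84e-12). NFKB1, which encodes p105 and p50, fell by 1.07 (99.7 to 47.3 CPM, 2.56e-27). With GNF-7 at 6 h 6 were higher and 4 lower, against 17.9% and 21.4% (median 0.02, against 0.01), led by MAP3K14, the kinase NIK, at -1.44 (2.61e-30), NFKBIZ, a nuclear IkB protein, at 0.86 (3.95e-10), NFKBIA, the IkB alpha feedback inhibitor, at -0.67 (6.92e-12) and RELB at 0.46 (6.18e-09). With GNF-7 at 24 h 3 were higher and 11 lower, against 29.3% and 29.7% (median -0.20, against 0.04), led by BIRC3 at -1.42 (6.53 to 2.43 CPM, 2.25e-13), MAP3K14 at -1.16 (2.43e-25), NFKBIA at -1.07 (1.57e-19) and NFKBIE, the IkB epsilon inhibitor, at -0.80 (1.99e-13).

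Of 20 listed inducers and transcription factors upstream of chemokine genes, 18 were tested, and in senescence 9 were higher and 8 lower, against 35.6% and 34.4% of all genes tested (median 0.10, against 0.06). IL1A, the cytokine interleukin-1 alpha, rose by 1.70 (1.94 to 6.28 CPM, edgeR adjusted p 1.88e-15) and IL1B, interleukin-1 beta, by 1.27 (47.7 to 115 CPM, 2.25e-34). CGAS, the cytosolic DNA sensor, fell by 1.69 (3.16e-16). FOS, an AP-1 subunit, fell by 1.57 (0.00729), with a wide spread in cycling libraries (34.6 ± 15.3 CPM), and was not called in a fit of those 2 groups alone (-1.52, 0.0595).

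With GNF-7 at 6 h 6 of these 18 were higher and 6 lower (17.9% and 21.4% of all genes tested), and at 24 h 3 were higher and 7 lower (29.3% and 29.7%). CEBPB, which encodes C/EBP beta, rose by 1.51 at 6 h (101 to 288 CPM, edgeR adjusted p 6.04e-08) and by 1.45 at 24 h (82.8 to 226 CPM, 4.27e-08). IL1B rose by 1.12 at 24 h (159 to 347 CPM, 1.08e-33), and IL1R1, the interleukin-1 receptor, by 0.94 at 6 h (2.24e-05). FOS fell by 2.17 at 6 h (11.7 to 2.59 CPM, 0.0111), a call lost with limma voom, and by 3.21 at 24 h (16.8 to 1.82 CPM, 6.70e-04). JUN, its AP-1 partner, fell by 0.74 at 6 h (158 to 95.03 CPM, 1.45e-22), and TNFRSF1A, the tumour necrosis factor receptor, by 0.94 at 24 h (241 to 126 CPM, 2.86e-30).

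Chemokine mRNAs are also known to be short-lived through AU-rich elements. Of 11 listed regulators of mRNA decay, all tested, 3 were higher and 7 lower in senescence, and 0 were higher and 8 lower with GNF-7 at each time (medians -0.29, -0.15 and -0.29, against 0.06, 0.01 and 0.04 for all genes tested). Of all genes tested, 35.6% were called higher and 34.4% lower in senescence, 17.9% and 21.4% with GNF-7 at 6 h and 29.3% and 29.7% at 24 h. DESeq2 and limma voom also called 0 higher with GNF-7, at an unadjusted edgeR p under 0.05 there were 0 higher at 6 h and 1 at 24 h, and with scaling to total counts 1 was called higher at 24 h. In senescence HNRNPD, the AU-rich element binding protein AUF1, fell by 1.67 (622 to 196 CPM, edgeR adjusted p 4.23e-44), ELAVL1, the stabilising protein HuR, by 1.16 (8.96e-33) and ZFP36L2, a decay factor, by 1.16 (1.03e-20), while ZC3H12A, the RNase regnase-1, rose by 1.22 (1.05e-17). At 6 h of GNF-7 the leading members were ZFP36, the decay factor tristetraprolin, at -0.61 (1.06e-06), its relative ZFP36L1 at -0.48 (3.24e-17), and the roquins RC3H1 at -0.33 (1.21e-04) and RC3H2 at -0.27 (2.81e-05). With GNF-7 at 24 h they were ZFP36L1 at -1.04 (254 to 124 CPM, 1.35e-33), HNRNPD at -0.41 (2.21e-14), ELAVL1 at -0.39 (7.73e-11) and RC3H1 at -0.35 (2.63e-05). Exons of TNFAIP3, MAP3K14, IL1R1, CGAS, CEBPB, HNRNPD, ELAVL1, CCR10, CCL3 and CXCL16 overlap exons on the opposite strand in GENCODE 29. So do exons of CXCR5 (3925 of 4431 bases) and ACKR2, counted above among the receptors called higher in senescence. Whether counting used strand is not given in the sources used here, so the values of these genes are uncertain in that respect. Exons of TERF2 (98 bases), ZC3H12A (60) and ACKR2 (833) overlap exons of other genes on the same strand, and how reads there were counted is not given either. These lists describe the surroundings of the chemokine genes, and a link from any of their members to a chemokine value was not tested.

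**Figure D4:**
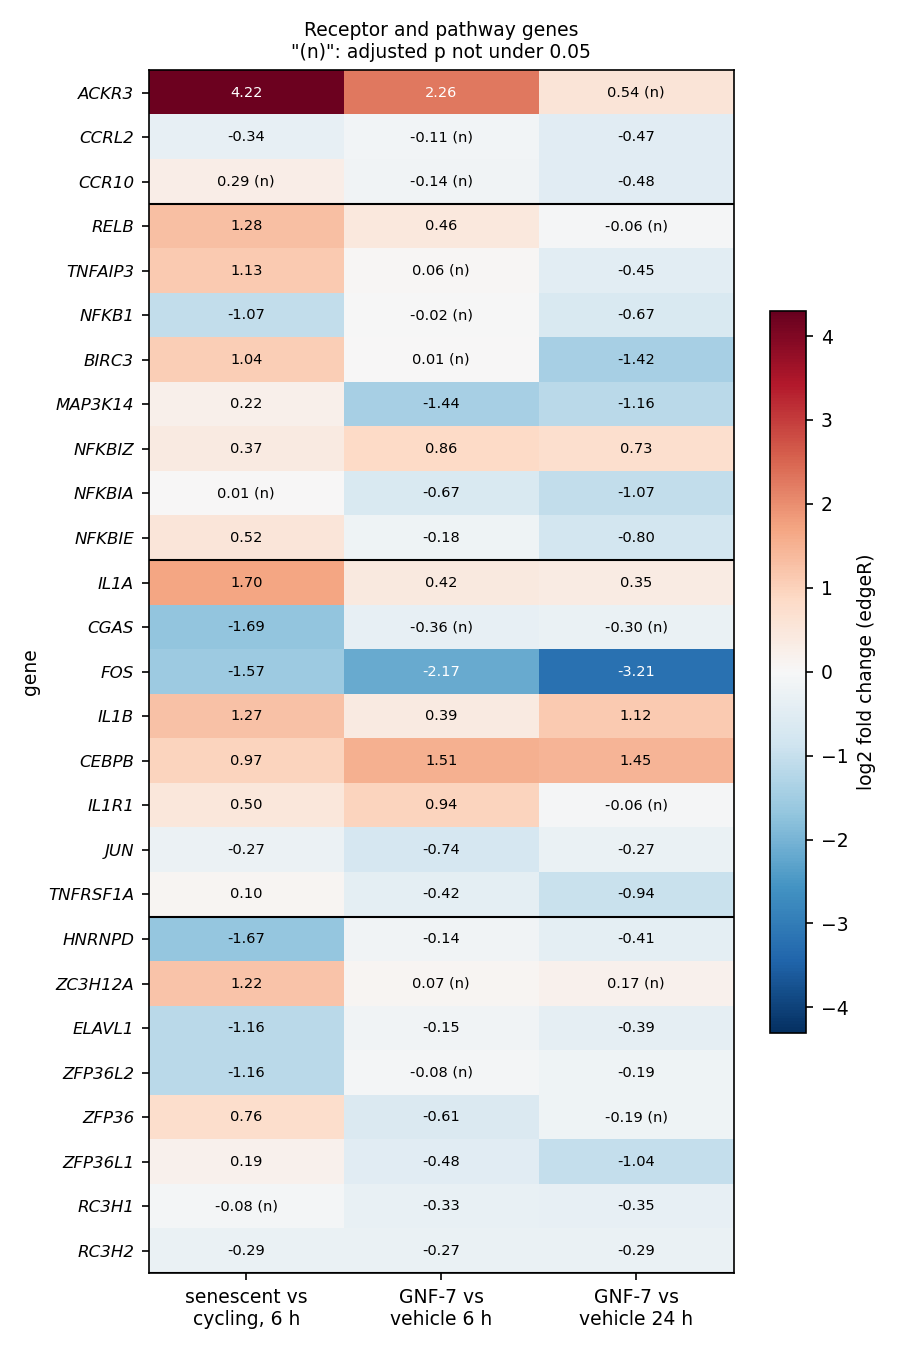
Log2 fold changes (colour scale and printed values) of the named receptor, NF-kB, inducer and decay genes (vertical axis, in that order between the lines) in 3 comparisons (horizontal axis); values with (n) had an edgeR adjusted p of 0.05 or more. CEBPB stands at 1.51 and 1.45 with GNF-7 at 6 h and 24 h, and FOS at -2.17 and -3.21.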

How the data were processed

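The genes of this set and the other gene lists were chosen with earlier results of these data known. The authors deposited 1 table of raw read counts per Ensembl gene, not normalized. Per the submitters' processing notes, bcl2fastq 2.20.0.422, STAR 2.7.9a, featureCounts 1.5.1 and GRCh38 were used. Settings, annotation release and strand use are not given in the sources used here. Per the labels' protocols, a stranded mRNA kit was used. Of 60673 rows, 3 were left out (1 gene entry broken over 3 lines). Every column was matched to 1 library by its library name. Gene positions and lengths come from GENCODE 29 on GRCh38 and promoters from RefSeq on GRCh38.p14.

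All 15 libraries were fitted together with edgeR 4.0.16 in R 4.3.3 (robust quasi-likelihood test, TMM scaling, filterByExpr, no replicate block), which tested 18563 genes. Adjusted p-values are Benjamini-Hochberg values over all genes tested. CPM uses TMM-scaled library sizes, log2 CPM for correlations a prior count of 2, and SD spans 3 libraries. Fits were tested on simulated data. No 2 libraries of a group agreed within sampling noise. Totals of 25991007 to 32323393 counts put the 3-count limit at 0.0928 to 0.115 CPM. Alternatives were other scalings, filters, DESeq2 1.42.0, limma 3.58.1 voom, separate groups, a replicate block, leaving out each library, and transcript length, the last added after seeing the data. Named list genes were those called with a mean of at least 1 CPM, at most 4 a comparison for the NF-kB, inducer and decay lists.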

Additional observations from a re-analysis of the deposited data

Results flagged for a closer look

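The GNF-7 effect on CCL2 differed between the times by -2.83 on the log2 scale (SE 0.189, edgeR adjusted p 1.28e-19). CCL2 was lower than in vehicle in 3 of 3 GNF-7 libraries at each time, and the difference ranged from -2.91 to -2.74 over 24 alternatives, all called. Some of these alternatives left out a cycling library, which does not enter the difference. For CCL7 the corresponding difference was -2.10 (SE 0.797, edgeR adjusted p 0.0365). The GNF-7 libraries at 24 h held 3, 1 and 4 counts of it, and the difference ranged from -2.64 to -1.72 over 23 alternatives, with adjusted p from 0.0128 to 0.123.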

How the results depend on the processing

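Of 816 alternative values of the 35 results on the 5 tested chemokine genes, 795 kept direction and side of the threshold, 9 lost the call, 10 gained it and 2 changed sign. The 2 are the CCL20 difference between the GNF-7 effects when replicate 3 of the 24 h vehicle group (-0.0196) or of the 24 h GNF-7 group (-0.0847) was left out, neither called, and leaving out each library gave up to 0.177. These totals include fits without a library of a group outside the comparison, which can move its result only through the shared fit, so they overstate its stability. Leaving out each library moved CCL7 in senescence between 0.38 and 1.13, CCL7 with GNF-7 at 6 h between -2.05 and -1.30 and the CCL7 difference between times between -2.64 and -1.72. Its call was lost without senescent vehicle replicates 1 (-1.89) and 3 (-1.92), GNF-7 6 h replicate 3 (-1.98), vehicle 24 h replicates 2 (-2.03) and 3 (-1.98) and GNF-7 24 h replicates 1 (-2.20) and 2 (-1.72), and without any filter (-2.11). Requiring a mean of 5 CPM left CCL2 and CXCL8 of the 5, so CCL7, CCL20 and CXCL3 have no value there, and its count for GNF-7 at 24 h against cycling cells was 9815 of 11234 genes tested in place of 14903. Under scaling to total counts the all-gene median went from 0.06 to 0.19 in senescence, from 0.10 to 0.24 for GNF-7 at 6 h against cycling cells and from 0.01 to -0.10 between the vehicle times, where 12.5% in place of 49.9% of calls were then higher. CCL2 in senescence was then 1.25 and CXCL8 -1.59. Of 1003 alternative values of 42 results on named list genes and TERF2, 994 kept their call and 9 lost it. Shares per kb moved with the length used as given above. At 3 counts a library, changes in CXCL1, CXCL2 and CXCL12 were not detectable.

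With the replicate number as a block, the counts of calls were 13032 in senescence, 7481 and 11031 with GNF-7 at 6 h and 24 h and 5921 for the difference between times, in place of 12999, 7286, 10940 and 5723, and no call of a chemokine gene changed. Deviations of the 30 pairs of same-numbered libraries correlated between -0.037 and 0.058, and those of the 60 other pairs between -0.069 and 0.040, and 0 exceeded 0.1. The highest value was that of replicate 1 of vehicle and of GNF-7 at 24 h. The lowest was that of vehicle replicate 1 and GNF-7 replicate 2 at the same time. The numbers were not used to pair the libraries in the main fit, and a small effect shared by number was not tested.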

Other observations

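Several receptors with a mean under 1 CPM also changed, named here after their values were seen. CCR1, a receptor for CCL7 and CCL3, rose in senescence from 0.151 ± 0.039 to 0.771 ± 0.139 CPM (SD, n = 3; log2 2.30, edgeR adjusted p 6.19e-05) and fell with GNF-7 at 24 h from 1.14 ± 0.058 to 0.463 ± 0.178 CPM (-1.29, 0.00569). CCR2, the receptor for CCL2, was at 0 in the 3 cycling libraries. It stood at 0.036 ± 0.035 CPM in vehicle and 0.605 ± 0.208 CPM with GNF-7 at 24 h (edgeR adjusted p 6.20e-05), from 3 and 55 counts, a ratio of 17.3 scaled for library size (exact 95% interval 5.61 to 86.3, counting error only). It passed the filter on low counts only through the group where it was high. CXCR2, the receptor for CXCL3 and CXCL8, rose in senescence from 0.097 ± 0.056 to 0.341 ± 0.127 CPM (1.80, edgeR adjusted p 0.0202) and stood at 0.776 ± 0.027 CPM with GNF-7 at 6 h (1.18, 0.0659). Cycling and senescent vehicle libraries at 6 h held 13 and 70 counts of CCR1, a scaled ratio of 5.02 (2.75 to 9.89, counting error only). For CXCR2 they held 8 and 31 counts, a scaled ratio of 3.61 (1.62 to 9.09). In cycling cells both genes lay under the filter limit of 0.335 CPM, so they were tested through senescent libraries alone.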
